A study of Homo sapiens with 4 samples.

Results

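The nuclear receptor genes examined here are 42 listed autosomal genes that encode transcription factors of the nuclear receptor superfamily, out of 19229 autosomal protein-coding genes of the GENCODE annotation on hg19. They were chosen by name, as the receptors for thyroid hormone, retinoic acid, steroids, lipids and bile acids, their RXR partners, the clock receptors and the orphan receptors. A gene was called marked in a cell line when an H3K27ac peak overlapped 1 kb either side of any of its transcript starts, and distal peaks were counted within 50 kb of the gene body. A distal peak lies over 1 kb from every transcript start of every protein-coding gene.

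The study profiled H3K27ac, an acetylation of histone H3 found at active promoters and enhancers, by ChIP-seq in 4 established cancer cell lines. COLO-205 is a colon cancer line grown in RPMI, DU-145 a prostate cancer line grown in Eagle's minimal essential medium, OVCAR-3 an ovarian cancer line grown in RPMI 1640, and SKOV-3 an ovarian cancer line grown in McCoy's 5a medium, all with foetal bovine serum and with the same antibody and no drug or gene change named in the labels. There was 1 library per line and each tissue other than ovary was represented by 1 line, so values have no replicate error, no test between lines was possible, and library, medium, line and tissue cannot be told apart. Serum holds ligands of several of these receptors.

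Nuclear receptors bind DNA directly, and many of them are switched by small fat-soluble ligands. Steroid receptors bind as pairs of like molecules, while the receptors for thyroid hormone, retinoic acid, vitamin D and many lipids pair with an RXR. In the absence of ligand many of these pairs hold corepressors at their sites, and ligand exchanges the corepressors for coactivators that acetylate histones.

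The lists held 85576 peaks in COLO-205, 76093 in OVCAR-3, 75468 in DU-145 and 14001 in SKOV-3, at 22400000 to 36000000 ChIP tags estimated from the peak values. A gene without a peak in SKOV-3 is therefore a gene missing from a short list. The labelled tissue was reflected in part by its markers. OVCAR-3 had peaks at 6 of 6 ovarian carcinoma markers, SKOV-3 at 2, fewer than the 4 of COLO-205 and 3 of DU-145, COLO-205 at 3 of 6 colon markers against 1 or 0 in the other lines, and DU-145 at 2 of 6 prostate markers, fewer than OVCAR-3 with 4 and without KLK3 and KLK2, which were marked in COLO-205. All 4 epithelial markers were marked in every line except SKOV-3, which lacked EPCAM and CDH1. Markers of immune and endothelial cells were unmarked except CD14 and CDH5 in DU-145, and of the fibroblast markers COL1A1 was marked in every line except SKOV-3. OVCAR-3 had 10559 peaks on chromosome 3, where 6 members lie, and DU-145 had 10794 on chromosome 14, which holds ESR2 and ESRRB.

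Sequences are shown for a pair of promoters in which a response element of 8 or more letters was found, because they place a known kind of input site beside the peaks. They were read from GRCh37, the build of the peak lists. The first is a 29-base stretch of RARB at chr3:25469696-25469724 on the plus strand, just before the canonical RARB start and in an untranslated exon of another RARB transcript, and its capitals mark a direct repeat of GTTCAC spaced by 5 bases, the element through which retinoic acid receptors act on this promoter. The motif was added after the data were seen. The other is the promoter of NR6A1 at chr9:127533591-127533840 on the minus strand, which ends next to the canonical NR6A1 start and overlaps the lncRNA gene ENSG00000236643, and its capitals mark TGACGTCA, the cyclic AMP response element.
RARB: ggtaggGTTCACCGAAAGTTCACtcgcat
NR6A1: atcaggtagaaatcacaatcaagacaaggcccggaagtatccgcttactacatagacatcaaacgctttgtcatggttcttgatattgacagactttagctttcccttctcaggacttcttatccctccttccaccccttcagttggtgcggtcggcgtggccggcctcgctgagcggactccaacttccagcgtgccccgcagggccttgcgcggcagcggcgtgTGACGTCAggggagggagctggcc
In windows from 250 bases before to 50 after the start, searched on both strands, the RARB motif was found in 1 of 19225 promoters, which is the RARB promoter itself. TGACGTCA was found in 3 of the 42 members (7.14%) and in 2.70% of all promoters. NR2E1, which is among them, had no promoter peak in any line. A match is a description of these letters and not of binding.

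Nuclear receptor promoters were marked in more of the members than of all genes in each library when every transcript start was counted, and this order did not hold at the 5′ end of the gene alone. With every start, 29 of the 42 were marked in COLO-205 (69.0%, all genes 52.8%), 30 in DU-145 (71.4%, all genes 62.0%), 31 in OVCAR-3 (73.8%, all genes 61.5%) and 17 in SKOV-3 (40.5%, all genes 32.4%). The members had a median of 8 distinct starts and a length of 50932 bp, against 5 starts and 27568 bp over all genes, so that more windows were searched for them. At the 5′ end alone, 16 members were marked in COLO-205 (38.1%, all genes 43.7%), 24 in DU-145 (57.1%, all genes 55.8%), 20 in OVCAR-3 (47.6%, all genes 54.9%) and 12 in SKOV-3 (28.6%, all genes 27.9%). Of the 20 members with fewer than 8 starts, 14 were marked in COLO-205 (44.7% of all genes with as few starts), 13 in OVCAR-3 (65.0%, such genes 50.4%), 13 in DU-145 (65.0%, such genes 51.0%) and 8 in SKOV-3 (40.0%, such genes 24.4%). Among the 22 members with at least 8 starts, 68.2% were marked in COLO-205 (genes with as many starts 67.0%), 81.8% in OVCAR-3 (80.8%), 77.3% in DU-145 (81.0%) and 40.9% in SKOV-3 (46.4%).

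**Figure D1:**
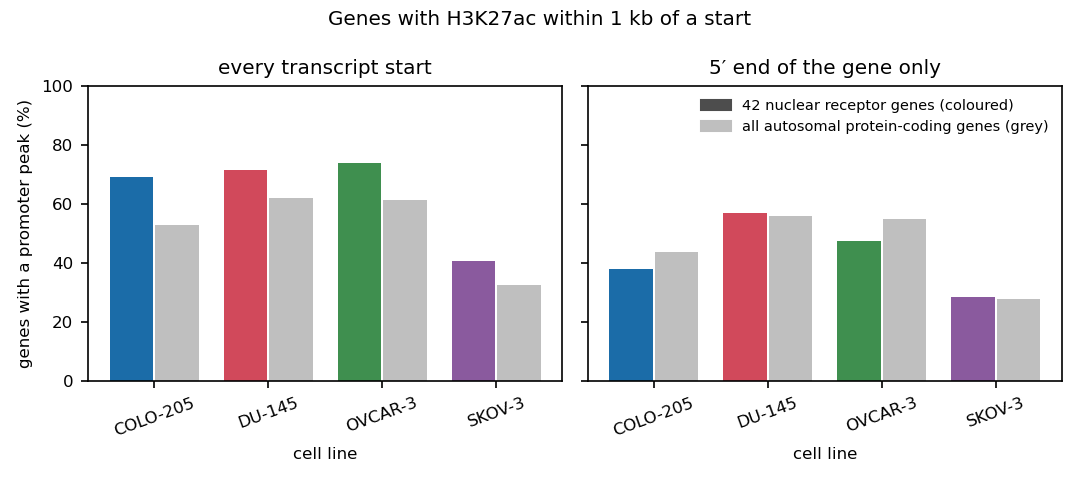
Share of genes with an H3K27ac peak within 1 kb of a start (y axis, percent) in each of the 4 lines (x axis), for the 42 nuclear receptor genes (coloured bars) and all autosomal protein-coding genes (grey bars), at every transcript start (left) and at the 5′ end of the gene (right). With every start the members stand above all genes in each line, and at the 5′ end they stand below them in COLO-205 (38.1% and 43.7%) and OVCAR-3 (47.6% and 54.9%).

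Across the 4 lines, 14 members were marked in every line (33.3%, all genes 26.0%), namely ESRRA, NR1D1, NR1D2, NR2C1, NR2C2, NR2F2, NR2F6, NR3C1, NR4A2, NR6A1, PPARG, RARA, RARG and RXRA. Another 11 were marked in 3 lines (26.2%, all genes 18.7%), of which 8 lacked a peak in SKOV-3 and 3 in COLO-205. There were 6 members marked in 2 lines (14.3%, all genes 16.7%), 6 in 1 line (14.3%, all genes 15.2%) and 5 in none (11.9%, all genes 23.4%). Of the 6 marked in a single line, ESRRG, RARB and RORB were marked in OVCAR-3 and NR0B2, NR1I3 and NR5A1 in COLO-205. No member was marked in DU-145 alone or in SKOV-3 alone, which were the patterns of 4.48% and 0.270% of all genes.

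**Figure D2:**
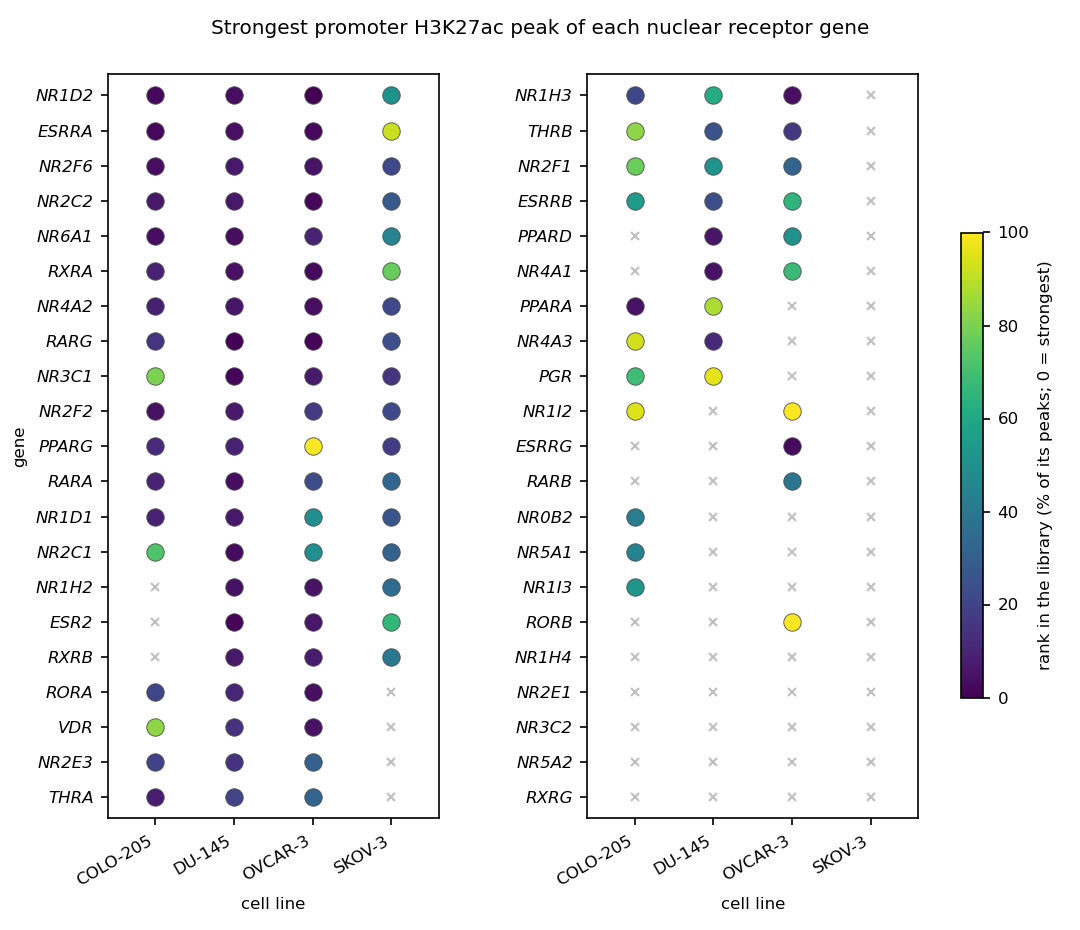
Strongest promoter peak of each of the 42 nuclear receptor genes (rows) in each line (columns), coloured by its rank among the peaks of its library in percent, where 0 is the strongest, with grey crosses for genes without a promoter peak. Genes are ordered by the number of lines in which they are marked and then by median rank, from NR1D2 (median 3.10%) to the 5 genes marked in no line.

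Below, a fold is the enrichment over the local background at the summit of the strongest promoter peak of a gene, that is the peak of highest −log10 q, and a rank is the position of that peak among all peaks of its library, in percent from the strongest. Folds are not scaled between libraries, and ranks depend on the length of each list.

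Among the steroid receptors, the glucocorticoid receptor gene NR3C1 was marked in every line and the mineralocorticoid receptor gene NR3C2 in none. The NR3C1 peaks were at internal starts, the canonical one included, and its 5′-most start was unmarked in every line. The rank of NR3C1 was 80.4% in COLO-205, 6.76% in OVCAR-3, 0.831% in DU-145 and 15.6% in SKOV-3, so the COLO-205 peak was weak within its library and the DU-145 peak, 3458 bp wide, was among its strongest. NR3C2 had its nearest peak 8207 bp from a start in COLO-205, 8131 bp in SKOV-3 and 8007 bp in OVCAR-3, and 422938 bp away in DU-145. ESR2, which encodes estrogen receptor beta, was unmarked in COLO-205 and had folds of 10.2 in OVCAR-3, 7.56 in DU-145 and 4.16 in SKOV-3. Its peaks in these 3 lines lay at the 5′-most start of the gene, which is 43702 bp from the cluster of starts that holds the canonical one, and that cluster was marked in DU-145 alone, at 3.55-fold. PGR, the progesterone receptor gene, had folds of 4.09 in COLO-205 and 3.16 in DU-145, and no promoter peak in OVCAR-3 or SKOV-3, where the nearest peaks were 274492 bp and 274506 bp away. Both PGR peaks lay at an internal start 2725 bp inside the gene and had −log10 q values of 6.87 in COLO-205 and 4.87 in DU-145. The canonical PGR start was unmarked in every line.

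The estrogen-related receptors are orphan receptors that control genes of energy metabolism, and they differed in the number of lines marked. ESRRA had folds of 6.42 in COLO-205, 12.2 in OVCAR-3, 5.60 in DU-145 and 3.52 in SKOV-3. Its rank was 2.23% in COLO-205, 2.01% in OVCAR-3 and 4.18% in DU-145, but 91.7% in SKOV-3, where the −log10 q was 5.62. Its promoter window also holds a start of CATSPERZ. ESRRB had folds of 5.06 in COLO-205, 5.13 in OVCAR-3 and 5.25 in DU-145, and none in SKOV-3. The strongest peaks of COLO-205 and DU-145 were at the same internal start without a protein-coding transcript, 188934 bp into the gene, where OVCAR-3 had a weaker one of 4.55-fold, and the strongest of OVCAR-3 was at another start, 32189 bp from the canonical one. The canonical ESRRB start was marked in DU-145 alone, at 5.10-fold. ESRRG was unmarked in SKOV-3, COLO-205 and DU-145 and had a fold of 15.7 with a −log10 q of 102 in OVCAR-3. It was the strongest promoter peak of any member marked in a single line, at a rank of 2.90% and 3.59 tags per 1000000 at the summit (95% Poisson interval 2.99 to 4.29, counting error only). It stood 366128 bp from the canonical ESRRG start, at clusters of starts 47208 bp and 47949 bp from the 5′ end of the gene, and the nearest peak to any ESRRG start in the other lines was 71718 bp away in COLO-205, 113939 bp in DU-145 and 493070 bp in SKOV-3.

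The thyroid hormone and retinoic acid receptors act with an RXR partner. Of these 5 genes, 4 were marked in COLO-205 (all genes 52.8%), 5 in OVCAR-3 (61.5%), 4 in DU-145 (62.0%) and 2 in SKOV-3 (32.4%). THRA had folds of 5.36 in COLO-205, 4.36 in OVCAR-3 and 3.66 in DU-145, and no peak in SKOV-3. Its strongest COLO-205 peak lay 8290 bp from the canonical start, which was also marked there, at 4.08-fold. The strongest peaks of DU-145 and OVCAR-3 covered the canonical start. MED24 has a start whose window meets one of THRA. THRB had folds of 3.25 in COLO-205, 6.45 in OVCAR-3 and 4.05 in DU-145, and none in SKOV-3. The COLO-205 peak of THRB had a rank of 83.0% and was 218 bp wide, against 1902 bp in OVCAR-3.

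The retinoic acid receptor genes have several clusters of starts, which were marked in different lines. RARG was marked in every line, with folds of 4.33 in COLO-205, 15.7 in OVCAR-3, 7.73 in DU-145 and 5.62 in SKOV-3. At its first cluster of starts the highest folds were 15.7 in OVCAR-3, 5.07 in DU-145 and 4.69 in SKOV-3, with no peak in COLO-205, and at the internal cluster 12567 bp into the gene they were 4.33 in COLO-205, 8.31 in OVCAR-3, 7.73 in DU-145 and 5.62 in SKOV-3. OVCAR-3 was thus higher at the first cluster, and the other lines at the internal one. RARA was likewise marked in every line at its second cluster, 9101 bp into the gene, with highest folds of 4.08 in COLO-205, 4.62 in OVCAR-3, 5.33 in DU-145 and 4.99 in SKOV-3. Its first cluster was unmarked in SKOV-3. RARB, which is induced by retinoic acid through its own promoter, was unmarked in SKOV-3, COLO-205 and DU-145, where the nearest peak to any of its starts was 163099 bp, 163051 bp and 162716 bp away. In OVCAR-3 it had a fold of 6.53 (−log10 q 14, rank 38.8%) at the start cluster that holds the retinoic acid response element shown above, and a fold of 4.35 at a cluster 141436 bp into the gene. The element itself, at chr3:25469702-25469718, was in no peak. It lay between an OVCAR-3 peak that ends 39 bp before it, at 25469663, and the strongest one, from 25469759 to 25470055. RARB is on chromosome 3, where OVCAR-3 has many peaks, and its part in this difference was not tested.

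The RXR genes encode the shared partners. RXRA was marked in every line, with folds of 5.21 in COLO-205, 13.7 in OVCAR-3, 6.25 in DU-145 and 4.24 in SKOV-3. The strongest peaks of COLO-205 and SKOV-3 were at an internal start, 52929 bp and 52800 bp from the canonical one, and the SKOV-3 peak ranked at 76.8%. The canonical start itself was marked in every line except SKOV-3. RXRB had folds of 7.23 in OVCAR-3, 4.55 in DU-145 and 4.06 in SKOV-3 and no peak within 98236 bp of a start in COLO-205. SLC39A7 shares its window. RXRG was marked in no line, with a nearest peak 5642 bp from a start in COLO-205 and at least 47978 bp away in the others.

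The lipid and metabolite sensors include the PPARs, the oxysterol receptors NR1H2 and NR1H3, the bile acid receptor NR1H4, the xenobiotic receptors NR1I2 and NR1I3, and the vitamin D receptor VDR. Of these 9 genes, 6 were marked in COLO-205 (all genes 52.8%), 6 in OVCAR-3 (61.5%), 6 in DU-145 (62.0%) and 2 in SKOV-3 (32.4%). The 3 PPAR genes, whose products sense fatty acids, had 3 different patterns. PPARA had folds of 5.52 in COLO-205 and 2.99 in DU-145 and was unmarked in OVCAR-3 and SKOV-3. Its rank was 5.03% in COLO-205 and 87.2% in DU-145. PPARD, which has 2 distinct starts, was unmarked in COLO-205 and SKOV-3 and had folds of 5.83 in DU-145 and 3.73 in OVCAR-3. It was stronger in DU-145, with a rank of 5.78% against 50.3%. PPARG, the receptor of fat cell differentiation, had folds of 5.77 in COLO-205, 2.91 in OVCAR-3, 5.38 in DU-145 and 7.70 in SKOV-3, and its OVCAR-3 peak, at a rank of 99.6% and a −log10 q of 3.70, was barely within the list although PPARG lies on chromosome 3.

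NR1H2, which encodes LXR beta, was unmarked in COLO-205 and had folds of 9.11 in OVCAR-3, 5.06 in DU-145 and 4.58 in SKOV-3. NAPSA has a start in its windows. NR1H3, which encodes LXR alpha, had folds of 3.67 in COLO-205, 9.17 in OVCAR-3 and 2.65 in DU-145, and none in SKOV-3. The NR1H3 summit held 4.65 tags per 1000000 in OVCAR-3 (3.95 to 5.43), 1.71 (1.27 to 2.25) in COLO-205 and 1.5 (1.13 to 1.95) in DU-145, with intervals for counting error only. OVCAR-3 also had the highest median over its marked members, 2.69 tags per 1000000 against 1.38 in COLO-205 and 2.09 in DU-145, and the sequence from 50 kb to 1 Mb on either side of NR1H3 held 11.3 distal peaks per 100 kb in OVCAR-3, 2.42 in COLO-205 and 0.737 in DU-145. Their part in the NR1H3 values was not tested. These peaks were at the first clusters of starts, 8606 bp to 8872 bp from the canonical one, which was unmarked in every line. OVCAR-3 had a further peak of 11.1-fold at an internal cluster 19645 bp into the gene, and the windows of the gene also hold starts of ACP2 and MADD.
VDR had folds of 3.96 in COLO-205, 11.3 in OVCAR-3 and 4.34 in DU-145 and no promoter peak in SKOV-3. The canonical VDR start was marked in DU-145 and OVCAR-3, and the COLO-205 peak was at an internal start 63933 bp into the gene with a −log10 q of 5.89. NR1I2, the pregnane X receptor gene, had folds of 2.85 in COLO-205 and 2.48 in OVCAR-3 and none in DU-145 and SKOV-3. Both peaks were at 1 internal start with no protein-coding transcript, 30592 bp into the gene, and had ranks of 94.7% and 99.9%. With a −log10 q of at least 5 NR1I2 was marked in no line. NR1I3, the constitutive androstane receptor gene, was marked in COLO-205 alone, at 4.86-fold, again at an internal start without a protein-coding transcript. In the other lines the nearest peak to an NR1I3 start was 4563 bp away in OVCAR-3, 3247 bp in DU-145 and 98438 bp in SKOV-3. NR1H4 was marked in no line and had no distal peak in any.

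The clock receptors repress or activate genes of the circadian oscillator, and NR1D1 and NR1D2, which encode the REV-ERB repressors, were marked in every line. The rank of NR1D1 ran from 6.63% in DU-145 to 49.6% in OVCAR-3. NR1D2 had the highest median rank of the members marked in every line, with folds of 8.97 in COLO-205, 28.9 in OVCAR-3, 7.71 in DU-145 and 5.43 in SKOV-3. OVCAR-3 was highest, at 5.85 tags per 1000000 (5.06 to 6.71) against 1.95 (1.48 to 2.52) in COLO-205, 1.91 (1.49 to 2.42) in DU-145 and 1.16 (0.758 to 1.70) in SKOV-3, with intervals for counting error only. The median over marked members was also highest in OVCAR-3, at 2.69 against 1.38 in COLO-205, 2.09 in DU-145 and 1.83 in SKOV-3. Its part in the NR1D2 values was not tested. NR1D2 is on chromosome 3 and shares its window with NKIRAS1, so the peak cannot be assigned to either gene. RORA had folds of 4.62 in COLO-205, 14 in OVCAR-3 and 5.08 in DU-145, and none in SKOV-3. These peaks stood at internal starts 636081 bp to 637485 bp from the canonical RORA start, which was marked at 2.78-fold in DU-145 and 4.82-fold in OVCAR-3. RORB was marked in OVCAR-3 alone, at 3.56-fold with a −log10 q of 3.90 and a rank of 99.4%, and the nearest peaks in SKOV-3, COLO-205 and DU-145 were 336336 bp, 237396 bp and 141401 bp from its starts. With a −log10 q of at least 5 RORB was marked in no line.

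Of the 7 NR2 orphan receptor genes, 6 were marked in COLO-205 (all genes 52.8%), 6 in OVCAR-3 (61.5%), 6 in DU-145 (62.0%) and 4 in SKOV-3 (32.4%). NR2F6 had folds of 7.38 in COLO-205, 13.0 in OVCAR-3, 6.50 in DU-145 and 6.84 in SKOV-3. Its ranks ran from 3.75% in COLO-205 to 21.6% in SKOV-3, and in DU-145 it stood at 6.47%, beside a median of 6.42% over the marked members. NR2C2, the TR4 orphan receptor gene, had folds of 6.28 in COLO-205, 13.6 in OVCAR-3, 5.64 in DU-145 and 5.32 in SKOV-3, with ranks from 1.67% in OVCAR-3 to 27.5% in SKOV-3. NR2F1 and NR2F2 encode the COUP transcription factors of development. NR2F1 had folds of 3.56 in COLO-205, 5.34 in OVCAR-3 and 3.85 in DU-145, and in SKOV-3 no peak was called within 1913514 bp of a start. NR2F2 was marked in every line with ranks of 4.55% to 22.1%. NR2E3, the photoreceptor-specific nuclear receptor gene, had folds of 5.42 in COLO-205, 5.79 in OVCAR-3 and 6.35 in DU-145, and none in SKOV-3. The COLO-205 peak of NR2E3 was at its canonical start, and those of DU-145 and OVCAR-3 were at the 5′-most start, 17917 bp before the canonical cluster. NR2C1 had ranks from 2.90% in DU-145 to 72.0% in COLO-205, and NR2E1, which acts in neural stem cells, was unmarked in every line, with the nearest peak 1383 bp away in COLO-205.

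The NR4A genes are immediate early genes, and all 3 were marked in DU-145, where 62.0% of all genes were marked. NR4A1 had folds of 5.27 in DU-145 and 3.11 in OVCAR-3 and was unmarked in COLO-205 and SKOV-3, with the nearest peak 5369 bp and 13033 bp from a start. NR4A2 was marked in every line at its 5′-most start, with highest folds of 5.07 in COLO-205, 11.7 in OVCAR-3, 4.52 in DU-145 and 5.87 in SKOV-3. Its canonical cluster, 9586 bp further on, had peaks of 5.69-fold in DU-145 and 7.68-fold in OVCAR-3 and none within 1 kb in COLO-205 or SKOV-3. COLO-205 had a 5.16-fold peak just outside that window, which was counted as distal. Its summit lay 1364 bp from the nearest NR4A2 start, and it overlapped peaks of DU-145 and OVCAR-3. NR4A3 had folds of 2.93 in COLO-205 and 4.11 in DU-145. The DU-145 peak was at the first cluster of NR4A3 starts and the COLO-205 peak at an internal one, and in OVCAR-3 and SKOV-3 the nearest peaks were 1924 bp and 1994 bp from a start, so that a window of 2 kb would count them.

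Of the NR5, NR6 and NR0 genes, NR6A1, the germ cell nuclear factor gene, was marked in every line with folds of 6.67 in COLO-205, 8.20 in OVCAR-3, 6.25 in DU-145 and 4.35 in SKOV-3. Of the 3 members with TGACGTCA, NR6A1 was the only one whose element lay inside a peak in any line. It did so in DU-145, OVCAR-3 and SKOV-3, and lay 29 bp outside the peak in COLO-205. NR5A1, the steroidogenic factor gene, was marked in COLO-205 alone, with a fold of 4.6 and 5 promoter peaks. The nearest peak to an NR5A1 start was 4134 bp away in OVCAR-3, 18250 bp in DU-145 and 67848 bp in SKOV-3. NR0B2, which encodes the small heterodimer partner that represses bile acid synthesis, was marked at its only start in COLO-205 alone, at 3.63-fold. In SKOV-3, OVCAR-3 and DU-145 the nearest peak was 7826 bp, 7798 bp and 5712 bp from that start. NR5A2, its activator in liver, was unmarked in every line, with the nearest peak 1172 bp from a start in DU-145.

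Some members were marked only away from the canonical start. These were 11 of the 29 marked members in COLO-205 (12.7% of all marked genes), 6 of 31 in OVCAR-3 (6.23% of all), 3 of 30 in DU-145 (6.24% of all) and 4 of 17 in SKOV-3 (7.96% of all), and the members have more starts than most genes. Some in COLO-205 narrowly missed the window, as the NR2F1 peak lay 1045 bp from the canonical start. NR4A2 likewise had the COLO-205 peak just outside the window that is given above. The starts of the 42 genes formed 200 clusters when starts within 500 bp were joined, and 39 members had more than 1. COLO-205 had peaks at 56 of these clusters, DU-145 at 67, OVCAR-3 at 62 and SKOV-3 at 28. There were 21 clusters marked in every line and 109 in none. Clusters were not counted for all genes, so these numbers have no background and only describe the members. The strongest promoter peak of a marked member had a median rank of 19.7% in COLO-205 (all marked genes 21.7%), 9.63% in OVCAR-3 (12.2%), 6.42% in DU-145 (12.1%) and 31.4% in SKOV-3 (31.6%). Its median width was 542 bp in COLO-205 (all marked genes 396 bp), 793 bp in OVCAR-3 (642 bp), 1010 bp in DU-145 (760 bp) and 421 bp in SKOV-3 (359 bp).

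Distal peaks were spread unevenly over the members. At least 1 distal peak was within 50 kb of 32 members in COLO-205 (76.2%, all genes 76.4%), 31 in DU-145 (73.8%, all genes 66.3%), 32 in OVCAR-3 (76.2%, all genes 60.7%) and 17 in SKOV-3 (40.5%, all genes 22.5%), and these genes cover longer stretches than most. The median number of distal peaks per member was 2 in COLO-205 (all genes 2), 2 in OVCAR-3 (1), 3 in DU-145 (2) and 0 in SKOV-3 (0). Per 100 kb of searched sequence the median was 1.25 near members in COLO-205 (all genes 1.65), 1.06 in OVCAR-3 (0.847), 1.87 in DU-145 (1.28) and 0 in SKOV-3 (0). The distinct peaks near members numbered 321 in COLO-205, 242 in OVCAR-3, 325 in DU-145 and 27 in SKOV-3, and 3 to 5 genes held at least 50% of the sum in each line.

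RXRA had 118 distal peaks in COLO-205, 31 in OVCAR-3, 6 in DU-145 and 3 in SKOV-3. The COLO-205 count was 52.8 peaks per 100 kb, where the sequence from 50 kb to 1 Mb on either side of the gene had 37.8, so the region around RXRA was dense in COLO-205 as well. In OVCAR-3 the RXRA values were 13.9 and 2.42 per 100 kb. ESRRB had 12 distal peaks in COLO-205, 29 in OVCAR-3, 72 in DU-145 and 1 in SKOV-3. Its DU-145 density was 24.7 per 100 kb against 12.2 on either side, on the chromosome where DU-145 has many peaks. NR6A1 had 47 distal peaks in COLO-205, 30 in OVCAR-3, 29 in DU-145 and 4 in SKOV-3, part of which are also near its neighbour NR5A1. Of the COLO-205 peaks 20 lay within NR6A1 and 19 beyond its 3′ end, on the side of NR5A1, while 23 of the 29 in DU-145 lay within the gene.

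PPARD had 6 distal peaks in OVCAR-3, 43 in DU-145 and 0 in both COLO-205 and SKOV-3. Of the DU-145 peaks 40 lay within the gene body, and they gave 23.2 per 100 kb against 4.53 on either side. Of the 43 peaks, 3 overlapped a peak of another line. VDR had 5 distal peaks in COLO-205, 33 in OVCAR-3, 12 in DU-145 and 5 in SKOV-3. Of the OVCAR-3 peaks 11 lay within VDR and 18 beyond its 3′ end. The OVCAR-3 density was 16.4 per 100 kb against 3.21 on either side, and all 5 SKOV-3 peaks were shared with another line although the VDR promoter was unmarked there. Among shorter genes, NR2F2 had 14 distal peaks in COLO-205 and 9 in DU-145, which is 12.2 and 7.87 per 100 kb where the surroundings had 0.789 and 0.158. RARB, with 910046 bp the longest member, had 0 distal peaks in every line. The density of a neighbourhood moved with several of these counts, and its part in them was not tested.

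**Figure D3:**
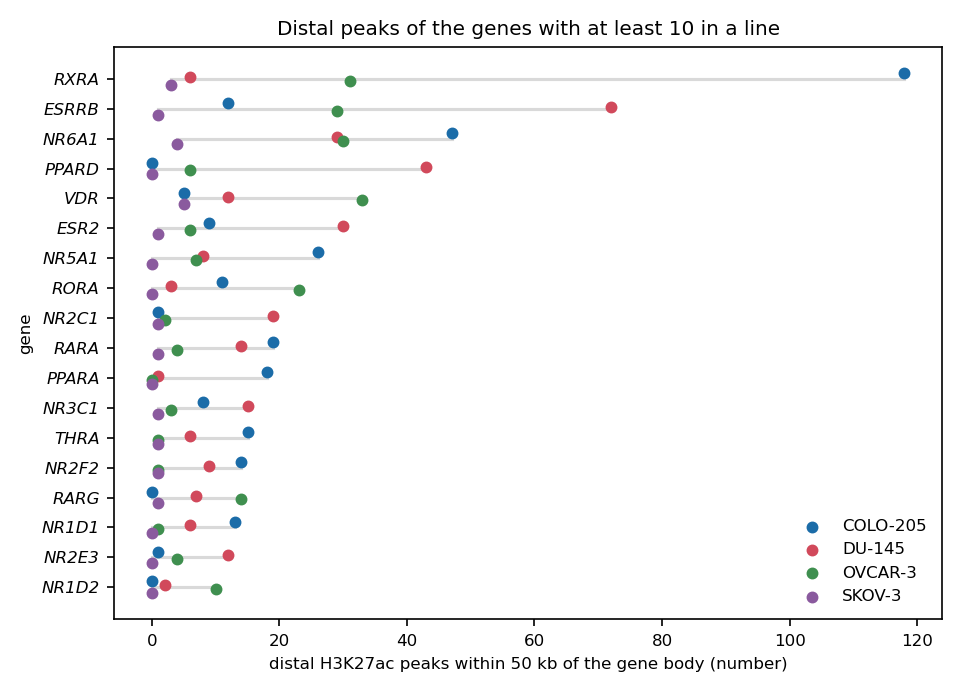
Number of distal H3K27ac peaks within 50 kb of the gene body (x axis) for the nuclear receptor genes with at least 10 in a line (rows), with 1 point per line. COLO-205 stands alone at RXRA with 118 peaks, DU-145 at ESRRB with 72 and PPARD with 43, and OVCAR-3 at VDR with 33.

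**Figure D4:**
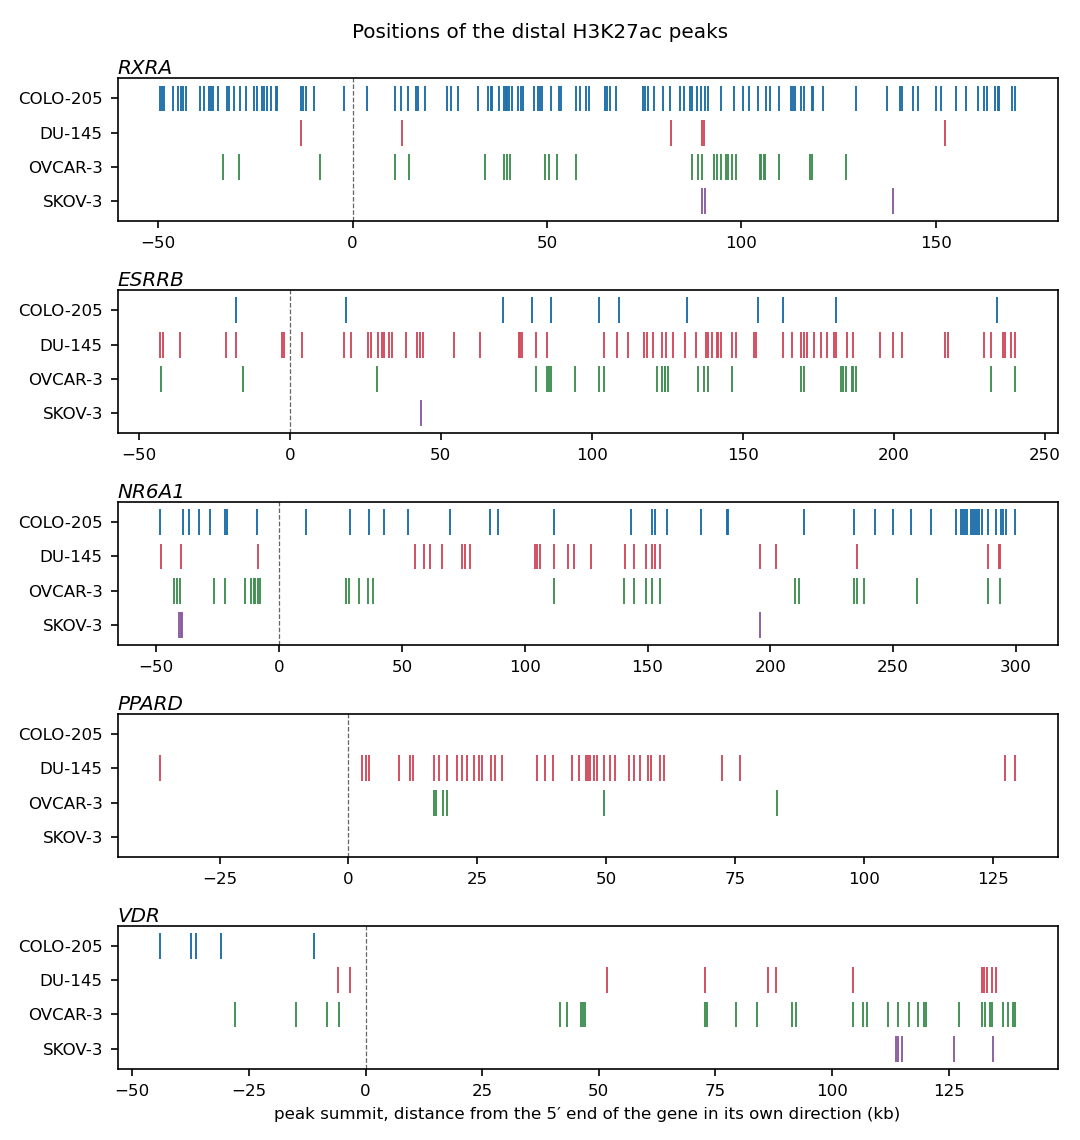
Positions of the distal H3K27ac peaks of RXRA, ESRRB, NR6A1, PPARD and VDR, as the distance of each summit from the 5′ end of the gene in its own direction (x axis, kb), with 1 row per line and 1 stroke per peak. The RXRA strokes of COLO-205 run on both sides of and across the gene, while those of PPARD in DU-145 lie mostly inside it.

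VDR, RXRA and ESRRB had the most distal peaks in OVCAR-3, COLO-205 and DU-145, and for each gene the 200 bases around the summit of its distal peak of highest −log10 q in that line are shown. By fold, another RXRA distal peak was higher in COLO-205, at 6.79. In OVCAR-3 the folds of distal peaks reached 10.3 at RXRA and 10.1 at ESRRB, but folds are not scaled between libraries. The VDR peak stood out, with a fold of 22.5 in OVCAR-3, a width of 1923 bp and a rank of 1922 in its list. It lies downstream of VDR in the lncRNA gene LINC02354, with its summit window at chr12:48229324-48229523, and no peak of another line overlapped it. The RXRA peak, with its summit window at chr9:137298371-137298570 in an intron of RXRA, had a fold of 6.26 in COLO-205 and overlapped peaks of DU-145, SKOV-3 and OVCAR-3. The SKOV-3 peak begins 120 bp outside this summit window, which peaks of OVCAR-3 and DU-145 overlap. The ESRRB peak, with its summit window at chr14:76734053-76734252, 42902 bp from the nearest ESRRB start and outside annotated genes, had a fold of 8.52 in DU-145 and overlapped an OVCAR-3 peak. All are given on the plus strand, and none of the motifs searched was found in them, so no letters are in capitals.
VDR: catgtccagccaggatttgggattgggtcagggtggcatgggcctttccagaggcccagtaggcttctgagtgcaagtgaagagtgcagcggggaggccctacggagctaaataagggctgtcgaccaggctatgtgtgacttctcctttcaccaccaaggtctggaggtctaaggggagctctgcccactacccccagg
RXRA: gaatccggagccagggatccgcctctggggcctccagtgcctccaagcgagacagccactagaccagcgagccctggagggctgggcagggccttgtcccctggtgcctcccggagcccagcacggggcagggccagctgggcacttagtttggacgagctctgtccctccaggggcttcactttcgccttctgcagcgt
ESRRB: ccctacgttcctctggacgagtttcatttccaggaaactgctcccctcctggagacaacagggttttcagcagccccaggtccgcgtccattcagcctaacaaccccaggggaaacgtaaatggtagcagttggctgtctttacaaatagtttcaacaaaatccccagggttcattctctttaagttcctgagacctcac
Of the distal peaks near members, 21.8% overlapped one of another line in COLO-205 (all autosomal distal peaks 15.9%), 39.7% in OVCAR-3 (28.8%), 27.7% in DU-145 (25.8%) and 85.2% in SKOV-3 (66.3%).

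The median CpG content was lower for members marked in 1 line or none than for those marked in more. In the 300-base window around the canonical start, the median ratio of observed to expected CpG was 0.507 for the 5 members marked in no line, 0.474 for the 6 in 1 line, 0.896 for the 6 in 2, 0.836 for the 11 in 3 and 0.944 for the 14 in every line. It was 0.824 over the 42 members and 0.778 over all promoters. Members broke this order, as RARG, PPARG and RARA, at 0.429, 0.430 and 0.492, were marked in every line, and RXRG, at 0.972, in none. The canonical start is not always the marked one, which is the case for RARA in SKOV-3 and RARG in COLO-205. AGGTCA, the half-site of many nuclear receptors, was found in 5 members (11.9%) and in 11.3% of all promoters, and CACGTG, the E-box of the clock, in 4 (9.52%) and in 8.66%. TGACTCA, the site of AP-1, was in 3 members (7.14%) and in 3.54%. AGGTCA can also lie within the longer motifs searched, which were its direct repeats spaced by 1 or 4 bases and the extended site TCAAGGTCA, and none of these was found in a member.

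**Figure D5:**
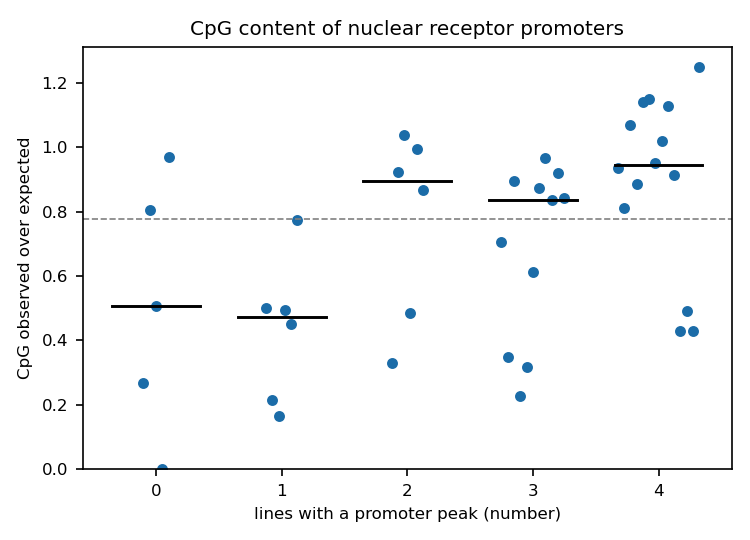
Observed over expected CpG in the promoter window (y axis) of each nuclear receptor gene (points) by the number of lines with a promoter peak (x axis), with the median of each class (black bars) and of all promoters (dashed line, 0.778). Classes 0 and 1 have medians of 0.507 and 0.474 and overlap the higher classes, in which 3 genes marked in every line lie at 0.429 to 0.492.

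The genes with which these receptors act were read from lists of coregulators and of well-known targets. Of 30 coregulators, which read the state of the receptor, 26 were marked in COLO-205 (86.7%, all genes 52.8%), 28 in OVCAR-3 (93.3%, all genes 61.5%), 27 in DU-145 (90.0%, all genes 62.0%) and 19 in SKOV-3 (63.3%, all genes 32.4%). In every line 17 of the 30 were marked (all genes 26.0%). No coregulator was marked in a single line. Of 58 well-known target genes and clock partners, 38 were marked in COLO-205 (65.5%), 35 in OVCAR-3 (60.3%), 38 in DU-145 (65.5%) and 15 in SKOV-3 (25.9%), so that the share lay below that of all genes in OVCAR-3 and SKOV-3. Of the 58, 11 were marked in every line (all genes 26.0%) and 8 in none (all genes 23.4%). Of the 12 targets of steroid receptors, 11 were marked in COLO-205 (91.7%), 9 in OVCAR-3 (75%), 12 in DU-145 (all) and 4 in SKOV-3 (33.3%). Of the 20 targets of the lipid and xenobiotic sensors, 8 were marked in COLO-205 (40%), 9 in OVCAR-3 (45%), 10 in DU-145 (50%) and 3 in SKOV-3 (15%), below the share of all genes in every line. Of the 14 retinoic acid and thyroid hormone targets, 8 were marked in COLO-205 (57.1%), 6 in OVCAR-3 (42.9%), 9 in DU-145 (64.3%) and 1 in SKOV-3 (7.14%), and of the 14 clock partners and targets 13 in COLO-205 (92.9%), 13 in OVCAR-3 (92.9%), 9 in DU-145 (64.3%) and 7 in SKOV-3 (50%). The targets marked in a single line were STRA6, CYP24A1, FGF19 and HLF in COLO-205, CYP26A1, PLAAT4, ANGPTL4 and PDK4 in DU-145, and THRSP and BHLHE41 in OVCAR-3. CYP24A1, the vitamin D-degrading enzyme induced by VDR, was thus marked in COLO-205, where the canonical VDR start was unmarked, and not in OVCAR-3, where VDR had its strongest promoter peak. Its distal peaks were in the other order, with 6 in OVCAR-3, 1 in COLO-205, 1 in DU-145 and 0 in SKOV-3. FGF19, the intestinal bile acid hormone induced by NR1H4, was marked in COLO-205, and NR1H4 itself in no line. CYP26A1, the retinoic acid-degrading enzyme, was marked in DU-145 and not in COLO-205 or SKOV-3, and in each of these 3 lines RARA and RARG were marked and RARB was not.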

How the data were processed

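The H3K27ac ChIP-seq peaks of the 4 cell lines, with 1 library each, were analysed. Per the submitters' processing notes, the authors used Bowtie2 2.1.0 and MACS2 2.1.0.20150603 on hg19/GRCh37, calling peaks in each library with a q-value threshold of 0.001. For every peak the authors deposited a score, which is the −log10 q times 10 as a whole number, the −log10 q and −log10 p themselves, and the fold enrichment above local background. The deposited lists hold neighbours under 350 bp apart, so the merging described in the methods was an alternative here. Values are not scaled between libraries.

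Transcript starts came from GENCODE release 44 lifted to GRCh37. Summit pileups and local backgrounds were solved from fold enrichment and −log10 p with a tolerance of 0.001, and the pileup step was tested on simulated data. Tag numbers were estimated from the lowest solved background, the smallest peak width and 2700000000 genome positions. This estimate was not tested, and the tags per 1000000 rest on it. Pileup intervals are exact 95% Poisson intervals. No test was run, since each line has 1 library, and the same counts over all autosomal protein-coding genes are given as background where they were made. Values are given for every member marked in 1, 2 or 3 lines, for the 5 marked in every line with the highest median rank and for the 5 with the most distal peaks. Of the others, NR3C1, NR4A2, PPARG, RARA and RARG are also given by line, a choice made after their values were seen, and NR1D1, NR2C1 and NR2F2 by range. The members, lists and alternatives were chosen with earlier results of these data known. PECAM1 had no entry in the annotation under that symbol. Scripts used pandas 2.3.3, matplotlib 3.10.9, scipy 1.17.1 and numpy 2.4.6 on Python 3.11.15. Some sequence and neighbouring-gene items are not reported here. Other data of the study were not analysed here.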

Additional observations from a re-analysis of the deposited data

How the results depend on the processing

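No paired analysis was possible because the lines have 1 library each and share no replicates. Of 189 values recomputed, 147 stayed within 1.5 times the reported count or within the interval of a share. With a −log10 q of at least 10, COLO-205 had 17 marked members (40.5%, all genes 32.8%) and 41 of 87 coregulators and targets marked (47.1%). At this threshold COLO-205 had 61 distal peaks, DU-145 had 93 distal peaks, OVCAR-3 111 and SKOV-3 9. Members marked in every line then numbered 9 (21.4%, all genes 15.9%), and 11 were marked in none (26.2%, all genes 33.6%). With 14001 peaks in every library, 14 members were marked in COLO-205 (33.3%, all genes 22.7%), 18 in OVCAR-3 (42.9%, all genes 39.0%), 23 in DU-145 (54.8%, all genes 39.6%) and 17 in SKOV-3 (40.5%, all genes 32.4%). Of the 42, 9 were marked in every line (all genes 13.0%), 7 in 3 (13.1%), 3 in 2 (12.9%) and 14 in none (44.6%). In this setting coregulators and targets marked were 32 in COLO-205 and 37 in DU-145, and distal peaks 15 in COLO-205, 24 in OVCAR-3 and 25 in DU-145, beside 27 distal peaks in SKOV-3. At the 5′ end of the gene alone, 9 members were marked in every line (21.4%, all genes 21.7%), 6 in 3 (14.3%, all genes 15.9%) and 14 in none (33.3%, all genes 30.7%). There, 16 were marked in COLO-205 and 20 in OVCAR-3, both below the share of all genes. The members' share was above that of all genes in each of the other 11 settings in these lines and in all 12 in DU-145 and SKOV-3. All marks were lost for NR1I2 and RORB at a −log10 q of at least 5, further for NR0B2, NR1I3, NR5A1 and PGR at 10, and with 14001 peaks also for ESRRB, NR2F1 and RARB. They were lost at the 5′ end for ESRRB, ESRRG, NR1I2, NR1I3, NR3C1, PGR, RARB, THRA and VDR, with protein-coding transcripts only for NR1I2 and NR1I3, and with a window of 500 bp for NR1I2. A window of 2 kb left 3 unmarked. Merging peaks and requiring the summit inside the window moved no member.

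Distal peaks within 100 kb numbered 369 in OVCAR-3, 499 in DU-145 and 63 in SKOV-3, and within 20 kb 17 in SKOV-3. Counting only peaks whose nearest protein-coding start is a member's gave 150 in OVCAR-3, 212 in DU-145 and 12 in SKOV-3. Without RXRA, added after the data were seen, COLO-205 had 203. Also added, requiring 50% of a peak to be covered lowered the shared share to 21.2% in DU-145 and 30.2% in OVCAR-3. Among the 14 members marked in every line, the line with the highest promoter value depended on the measure. By fold it was OVCAR-3 in 9, DU-145 in 2, SKOV-3 in 2 and COLO-205 in 1. By tags per 1000000 it was OVCAR-3 in 10, DU-145 in 4, SKOV-3 in 0 and COLO-205 in 0, and by rank OVCAR-3 in 5, DU-145 in 6, SKOV-3 in 0 and COLO-205 in 3. Leaving out the members on chromosome 3 or 14 kept the counts of marked members and of distal peaks in each line within 1.5 times. The cause of these changes was not tested except where stated.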

Other observations

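Of the 1048 protein-coding genes on chromosome 6, 37.1% were marked in COLO-205, 58.8% in OVCAR-3, 61.5% in DU-145 and 33.6% in SKOV-3, beside 52.8%, 61.5%, 62.0% and 32.4% of all genes. COLO-205 had 5692 peaks on this chromosome, OVCAR-3 1929, DU-145 2473 and SKOV-3 798. Of the 3 members there, PPARD, RXRB and NR2E1, none was marked in COLO-205, 2 in OVCAR-3, 2 in DU-145 and 1 in SKOV-3, and NR2E1 was unmarked in every line. With 3 members, a count of 0 is not read against these shares. These values come from 1 library per line and were not tested.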
